A study of Mus musculus with 80 samples.

Results

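The urea cycle of the liver turns ammonia, released when amino acids are broken down, into urea that can be excreted. The genes described here encode its enzymes: Nags, Cps1, Otc, Ass1, Asl and Arg1. They were chosen by symbol and not by any measured value, and are 6 of the 78275 genes in the count table, or 6 of the 21187 genes left after a filter on low counts, which all 6 passed. Expression was measured by RNA sequencing in the livers of 80 C57BL/6J mice, an inbred strain, all kept in constant darkness during sampling. Control mice had food available throughout, whereas fasted mice lost it at circadian time (CT) 10. CT counts hours of the animals' subjective day. Livers were taken every 4 h from CT8 to CT44, with 2 males and 2 females for each treatment and time, so each group held 4 libraries, each from a separate mouse. The group labelled fasted at CT8 still had food, and the fasts that followed lasted 2 to 34 h. All animals were 8 to 12 weeks old and on standard chow, and the RNA came from whole liver tissue, so that a lower value can reflect fewer cells of a type or less RNA per cell, which cannot be told apart.

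Titles and detailed labels of the libraries disagree on sex in 40 cases and on treatment in 40. Titles were followed, and in 80 of 80 libraries the sex in the title matched the counts of Xist and of genes on the Y chromosome. That check does not bear on treatment. The column headers of the count table name ad libitum feeding or fasting, the time and the sex, and the columns were matched to the titles by these names. The libraries held 25534901 to 59927771 counts (median 42303883). In the library of control CT8 female 2, 31.3% of the counts came from the ribosomal RNA gene Rn18s-rs5, against 0.0577% to 4.88% in the other 79 libraries. That library enters the control rhythms, the comparison of the sexes among controls and the comparison at CT8. Tests of fasting at later times came from the same fit of all 80 libraries, so it also bears on their scaling and estimated spread. Albumin, the main protein made by hepatocytes, had a mean of 66957 counts-per-million (CPM) in control and 71600 CPM in fasted libraries.

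The cycle begins in the mitochondria. Nags makes N-acetylglutamate, without which carbamoyl phosphate synthetase, the product of Cps1, has little activity. Cps1 joins ammonia and bicarbonate into carbamoyl phosphate, and Otc transfers the carbamoyl group to ornithine, giving citrulline. In the cytosol, Ass1 condenses citrulline with aspartate, Asl splits the product into arginine and fumarate, and Arg1 releases urea from arginine and returns ornithine. The enzymes are most abundant in hepatocytes around the portal vein, and their supply is known to follow protein intake, glucagon and glucocorticoids. During a fast, carbon from amino acids feeds glucose production and the nitrogen leaves through this cycle.

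The genes are spread over 6 chromosomes. On GRCm38, with GENCODE M21 annotation, Nags lies at chr11:102145513-102149477 and Cps1 at chr1:67123026-67231259, both on the plus strand. Otc is X-linked, at chrX:10252305-10321024 on the plus strand, and Ass1 lies at chr2:31470207-31520672 on the same strand. Asl, at chr5:130011258-130029247, and Arg1, at chr10:24915221-24927484, are on the minus strand. For 2 of them, Nags and Ass1, another annotated gene shares sequence with the exons.

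Nags and Otc were the members that fell with fasting, and the 250 bases before their RefSeq start sites, from the GRCm38.p6 assembly and on the plus strand, are shown for that reason. Capitals mark matches to TTNNGNAA, a short form of the site bound by C/EBP factors, read on either strand.
Nags chr11:102145263-102145512: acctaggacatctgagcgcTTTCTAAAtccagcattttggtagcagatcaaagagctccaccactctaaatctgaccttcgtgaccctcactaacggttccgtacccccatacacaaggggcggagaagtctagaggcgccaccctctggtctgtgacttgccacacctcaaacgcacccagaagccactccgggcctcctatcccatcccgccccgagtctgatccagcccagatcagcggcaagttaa
Otc chrX:10252055-10252304: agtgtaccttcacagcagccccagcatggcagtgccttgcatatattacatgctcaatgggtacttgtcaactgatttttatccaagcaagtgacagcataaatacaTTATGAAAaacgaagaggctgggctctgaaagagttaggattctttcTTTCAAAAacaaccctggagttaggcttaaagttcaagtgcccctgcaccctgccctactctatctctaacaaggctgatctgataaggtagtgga

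The Nags window held 1 match, beginning at position -231 from the start site, and the Otc window held 2, at -143 and -96. Promoter windows of 300 bases, from 250 before to 50 after the start, were found for 3 of the 6 members, the other being Ass1. The Ass1 window had no C/EBP match and 1 E-box (CACGTG), at -36, the element bound by CLOCK-BMAL1 and related factors. M21 places the start of Ass1 at chr2:31470207, upstream of this RefSeq start site, so the E-box lies inside the gene as annotated there. The letters TGACGTCA (cyclic AMP response element), ACANNNTGT (glucocorticoid element core) and TATAAA did not occur in any of the 3 windows, on either strand. Among all 32851 RefSeq windows of this length, 40.7% held TTNNGNAA, 7.15% CACGTG, 1.79% TGACGTCA, 6.85% ACANNNTGT and 13.6% TATAAA. The matches are letters in a sequence and are not shown to be bound here.

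The 6 genes were expressed at very different levels. In the 36 control libraries from CT12 to CT44, the mean level per kilobase of exon was 1234 ± 309 CPM per kb for Ass1, 1159 ± 195 for Cps1 and 559 ± 88.8 for Arg1 (SD). Asl, with 140 ± 34.9 CPM per kb, and Otc, with 107 ± 7.70, followed, and Nags, the regulator, was lowest with 24.7 ± 3.86. The ranges of Ass1 and Cps1 per kb overlapped, with Ass1 at 75.9% to 139% of the Cps1 level in single control libraries. Lengths here are the union of annotated transcripts, 8 for Asl, 4 for Ass1 and 1 for Cps1, which can lower the values per kb of Asl and Ass1. In fasted libraries the order was the same except that Cps1, with 1602 ± 408 CPM per kb, stood above Ass1, with 1427 ± 407. There too the ranges overlapped, with Ass1 at 53.3% to 168% of Cps1 in single fasted libraries. Reads counted under a near-identical pseudogene of Ass1, Gm5424, at 16.3% of the Ass1 count, are not included, so the order of these genes is not settled. Relative to Cps1 in the same library, the median level per kb of Otc went from 9.33% in controls to 4.73% in fasted mice and that of Asl from 12.2% to 20.1%. For Arg1 the median was 48.3% and 63.5%, and for Nags 2.19% and 1.28%. Together the 6 genes took 1.11% of all counts in controls at CT44 and 1.90% in mice fasted for 34 h. Earlier in the fast the shares were close, 1.36% in control and 1.39% in fasted mice at CT16, and 1.40% and 1.37% at CT20.

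**Figure D1:**
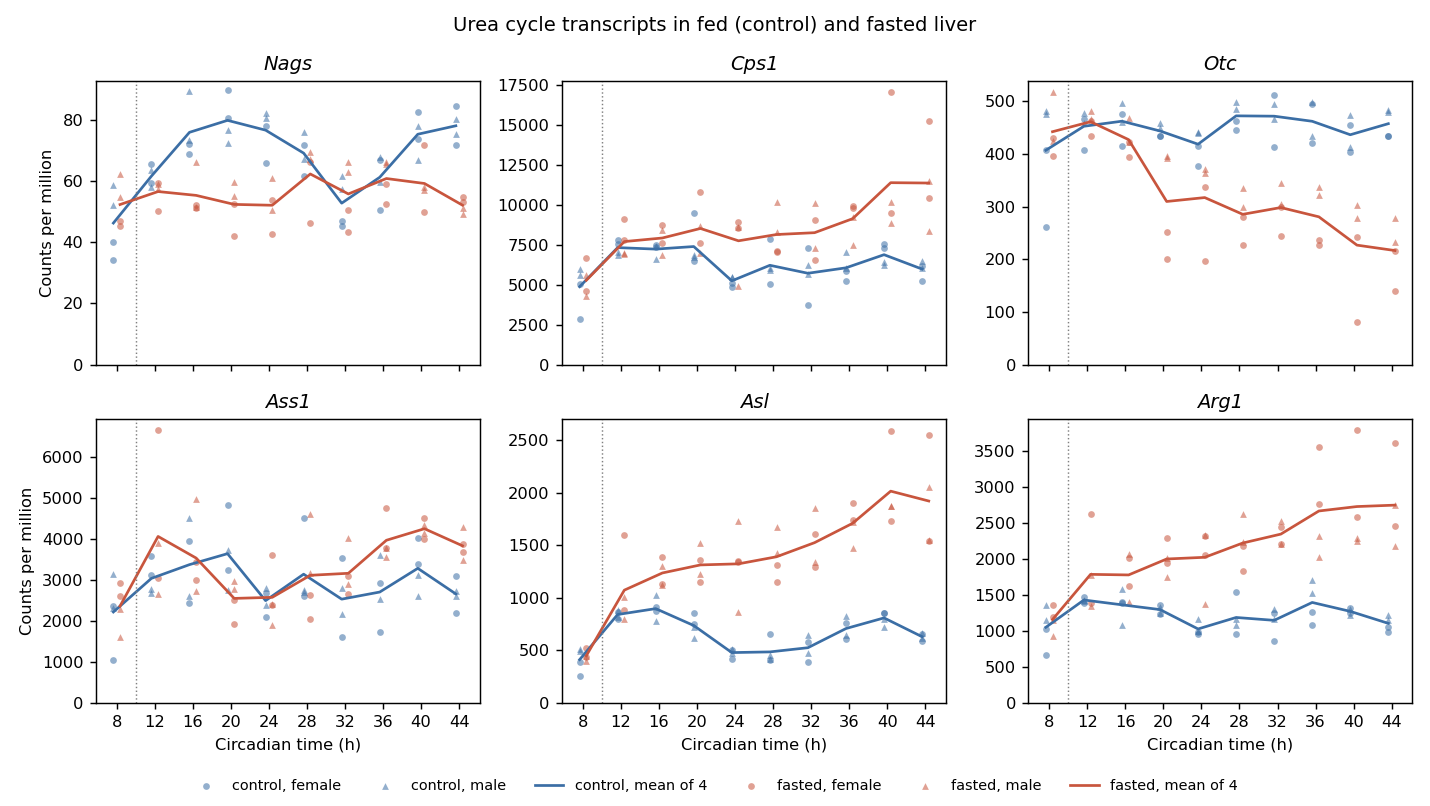
Counts-per-million (CPM) of the 6 enzymes in each of the 80 libraries against circadian time in hours, 1 panel per gene, with controls in blue and fasted mice in red, females as circles and males as triangles, lines through the means of 4 libraries and a dotted line where food was removed. At CT44 the fasted libraries lie below the controls for Nags and Otc and above them for Cps1, Ass1, Asl and Arg1. From CT12 on they are apart at 1 of 9 times for Ass1, 3 for Cps1 and 4 for Nags. Otc and Arg1 are apart at 7 times and Asl at 8. Of all genes, 33.4% were above at 1 or more times, 14% at 3 or more, 2.87% at 7 or more and 1.48% at 8 or more. Below the controls were 9.63% at 4 or more times and 2.55% at 7 or more.

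Fasting moved the members in opposite directions. In the mean of the 9 times from CT12 to CT44, with both sexes weighted equally, Cps1, Ass1, Asl and Arg1 rose and Nags and Otc fell. Thus 4 of 6 members were called higher, where 29.5% of all tested genes were, and 2 of 6 lower, where 32.9% were, at an adjusted p under 0.05 (edgeR quasi-likelihood test with Benjamini-Hochberg adjustment over all genes). The median log2 change of the members was 0.32, and that of all genes tested was -0.02. The median size of the change without its sign was 0.52 for the members and 0.27 for all genes. Calls were common in these data, so the size of each change says more than the count.

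Nags fell by 0.31 on the log2 scale (SE 0.036, adjusted p 2.83e-10 by edgeR's quasi-likelihood test), to 0.808 times the control level. Its lowest, median and highest CPM were 45.4, 71.9 and 90.0 over 36 control libraries and 42.1, 55 and 72 over 36 fasted ones. At CT20, after 10 h without food, control males had 76.7 and 72.4 CPM and control females 90.0 and 80.5, whereas fasted males had 55.2 and 59.7 and fasted females 42.1 and 52.6. All 4 fasted libraries at CT20 were below all 4 controls. At CT32, in the next subjective rest phase, control males had 61.6 and 57.4 CPM, control females 45.4 and 47.0, fasted males 63.2 and 66.3, and fasted females 50.6 and 43.4. There the groups overlapped. At CT44 the control libraries (75.6, 80.3, 72 and 84.7 CPM, males first) and the fasted ones (49.4, 51.3, 53.2 and 54.8) were apart again. A non-coding antisense gene, Gm11586, overlaps Nags by 698 bases on the other strand. Its count was 4.09% of that of Nags, and whether the counting kept reads of the 2 strands apart is not given in the sources used here.

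Cps1, which takes up the ammonia, rose by 0.45 (SE 0.063, adjusted p 2.66e-08, edgeR), a factor of 1.37. Control libraries ranged from 3748 CPM over a median of 6449 to 9448, and fasted libraries from 4899 over 8624 to 17020. At CT44 control males had 6016 and 6481 CPM and control females 5224 and 6165, against 8329 and 11456 in fasted males and 15215 and 10408 in fasted females. The groups did not overlap at that time, nor at CT36 and CT40, and overlapped at the other 6 of 9 times. Of all genes, 14% had all fasted above all control libraries at 3 or more times. At CT44 the SD was 2885 CPM among the fasted and 535 CPM among the control libraries (n = 4). At CT12 and CT16 the group means were close, 7315 ± 437 and 7692 ± 1004 CPM at CT12 for control and fasted mice (SD, n = 4).

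Otc fell by 0.59 (SE 0.056, adjusted p 8.38e-13, edgeR), to 0.664 times the control level. Its controls varied least of the 6 genes relative to their mean, 453 ± 32.6 CPM (SD, n = 36), and ran from 378 CPM over a median of 456 to 512, whereas fasted libraries spread from 81.4 over 305 to 482. At CT12, after 2 h, fasted males had 466 and 482 CPM and fasted females 462 and 435, within the range of the controls of all times. At CT44 fasted males had 278 and 233 CPM and fasted females 139 and 216, while the controls had 483 and 479 in males and 433 and 434 in females. Every fasted library was then below every control library.

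Ass1 rose by 0.19 (SE 0.084, adjusted p 0.0438, edgeR), a factor of 1.14 and the smallest change among the members. Its libraries spread widely in both treatments, from 1593 over 2770 to 4830 CPM in controls and from 1891 over 3459 to 6644 in fasted mice. At CT44 controls had 2605, 2727, 2195 and 3082 CPM and fasted libraries 3479, 4285, 3875 and 3670, males first, with no overlap. The groups overlapped at the other 8 of 9 times. Of all genes, 33.4% had all fasted above all control libraries at 1 or more times. At CT20 the order was the other way round, with group means of 3635 ± 890 CPM in control and 2543 ± 453 in fasted mice (SD, n = 4), a difference that did not pass the test (log2 -0.52, adjusted p 0.102, edgeR). With the low-count filter, Ass1 was called at 0 of 9 single times by edgeR, DESeq2 or limma, and had an unadjusted p under 0.05 at 3 of them in edgeR. Without the filter it was called at CT20, CT36 and CT44 (adjusted p 0.00506, 0.00346 and 0.0046, edgeR), and also at CT36 without female replicate 1 (0.0128) and at CT44 without female replicate 2 (0.0281). The mean change was lost without the library of fasted CT40 female 2 (0.19, adjusted p 0.0529, edgeR) and at a threshold of 0.01. It was also lost without either male replicate (log2 0.20 and 0.16) and in females alone (adjusted p 0.429, edgeR). Leaving out CT12, CT32, CT36, CT40 or CT44 lost it too (adjusted p 0.083 to 0.158, edgeR). Within the main fit neither sex passed (males 0.25, adjusted p 0.0739, females 0.13, adjusted p 0.368, edgeR). Fitted in males alone, all 6 members were called. A processed pseudogene, Gm5424, is 99.516% identical to Ass1 over 1240 bases and had 16.3% of its count. How reads shared by both were divided is not stated, and with the counts of both summed the same 6 members were called.

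Asl showed the largest change, a rise of 1.15 (SE 0.062, adjusted p 6.69e-21, edgeR) or 2.23-fold. Control libraries ranged from 391 over a median of 659 to 1028 CPM and fasted libraries from 799 over 1450 to 2588. At CT24 the controls had 473, 516, 415 and 503 CPM and the fasted libraries 1731, 868, 1341 and 1353, males first. At CT44 the controls had 614, 661, 586 and 651 CPM and the fasted libraries 1549, 2054, 2551 and 1537. The lowest fasted library was above the highest control at both times.

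Arg1, which carries out the last step, rose by 0.84 (SE 0.059, adjusted p 5.42e-17, edgeR) or 1.79-fold. Controls ranged from 863 over a median of 1243 to 1711 CPM and fasted libraries from 1343 over 2218 to 3793. At CT44 control males had 1155 and 1225 CPM and control females 1051 and 981, against 2177 and 2757 in fasted males and 3611 and 2453 in fasted females, again without overlap. By size of change without sign, Asl was above 91.8% of all tested genes and Arg1 above 85.9%, followed by Otc (76.8%), Cps1 (68.6%), Nags (54.7%) and Ass1 (38.4%).

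**Figure D2:**
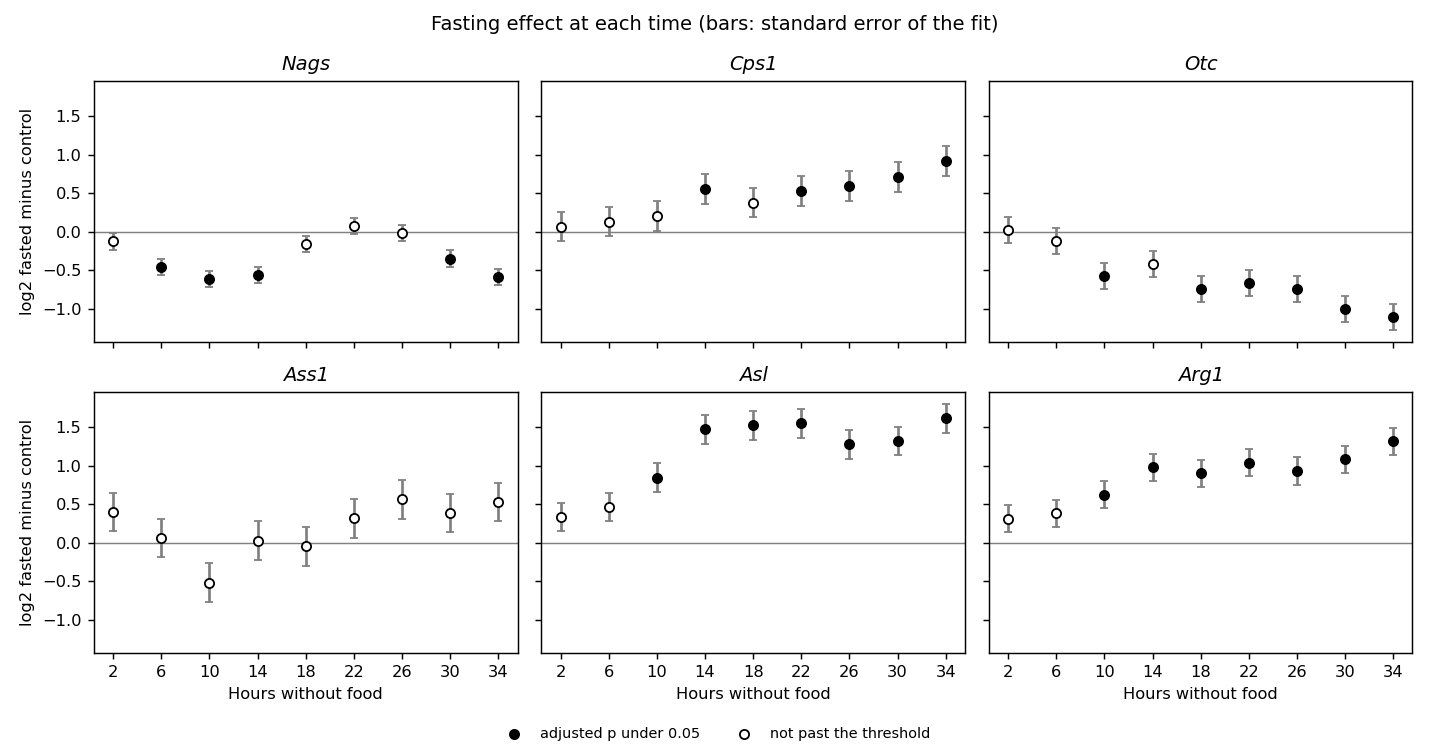
Fitted log2 difference of fasted minus control mice against hours without food (2 to 34 h, CT12 to CT44), 1 panel per gene, with bars for the standard error and filled circles where the adjusted p was under 0.05. After 34 h Asl is at 1.61, Arg1 at 1.31, Cps1 at 0.92 and Otc at -1.10, Nags is near 0 after 22 and 26 h, and Ass1 is not called at any single time.

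The members were also compared at single times. At CT16, after 6 h, Nags was called (log2 -0.46, adjusted p 0.00123, edgeR) and the other 5 members were not, where 23.4% of all genes were. That order depends on the setting: Nags at CT16 was lost without male replicate 2 (adjusted p 0.0675) and in females alone (0.0828), and Asl was called beside it by DESeq2 (0.0482), without a low-count filter (0.0125) and with at least 10 counts in every library (0.0471). At CT12, 0 of 6 members were called by edgeR, DESeq2 or limma, where 1.6% of genes were by edgeR, with log2 differences from -0.12 for Nags to 0.40 for Ass1 and a lowest unadjusted p of 0.0764, that of Asl. At CT20, Nags (-0.61), Otc (-0.57), Asl (0.84) and Arg1 (0.62) were called, 4 of 6 against 36.6% of all genes. At CT24, when 24.1% of genes were called, Cps1 was called for the first time (0.55, adjusted p 0.028, edgeR), and Otc (-0.42, adjusted p 0.0634) missed the threshold. Cps1 at CT24 was lost without male replicate 1 (0.557), without male replicate 2 (0.0801), in males alone (0.362) and in females alone (0.103), whereas Otc at CT24 was called by DESeq2 (0.046) and with either other low-count filter (0.00796 and 0.0451). Whether the genes differ in timing was not tested.

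Later in the fast, 3 members were called at CT28 (21% of genes), 4 at CT32 (17.7%), 4 at CT36 (26.8%), 5 at CT40 (39.9%) and 5 at CT44 (39.4%). Otc was called lower at every time from CT28 on, reaching -1.0 at CT40 and -1.10 at CT44. Asl was called higher from CT20 on, between 0.84 and 1.61, and Arg1 over the same times, between 0.62 and 1.31. Nags was called at CT16, CT20, CT24, CT40 and CT44 and lay at 0.07 and -0.01 at CT32 and CT36. Of 54 comparisons of a member at a time, 30 were called. Fitted in males alone, Arg1 was not called at CT20 or CT36 and Otc not at CT20. Fitted in females alone, Arg1 was not called at CT20 or CT28, Asl not at CT20 and Otc not at CT28 or CT32. Cps1 was not called at CT32 or CT36 in either sex alone, nor Nags at CT40 in females alone. Without male replicate 1, Otc was not called at CT20, CT28 or CT32 and Arg1 not at CT24, and without male replicate 2 Otc was not called at CT20, CT28, CT32 or CT36 and Arg1 not at CT20. Cps1 was also lost without either male replicate at CT32 and CT36, without male replicate 1 at CT40 and without female replicate 1 at CT32. Nags at CT40 was lost without either male replicate or without female replicate 2. All 4 fasted libraries were above all 4 controls at 8 of 9 times for Asl, 7 for Arg1, 3 for Cps1 and 1 for Ass1, and below them at 7 times for Otc and 4 for Nags. Of all genes tested, 1.48% were above at 8 or more times, 2.87% at 7 or more, 14% at 3 or more and 33.4% at 1 or more, and 2.55% were below at 7 or more and 9.63% at 4 or more. Without the library of fasted CT40 female 2, Nags (-0.21, adjusted p 0.165) and Cps1 (0.49, adjusted p 0.0578) were not called at CT40, and Otc was called at CT24 (-0.41, adjusted p 0.0105, edgeR).

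That library had 81.4 CPM of Otc, against 243 to 304 in the other 3 fasted libraries at CT40, and 17020 CPM of Cps1, 2588 of Asl and 3793 of Arg1, the highest values of these genes in any library. Its total count was 26820667. Before food was removed, at CT8, 0 of 6 members were called by edgeR, DESeq2 or limma (log2 0.11 to 0.20, lowest adjusted p 0.464 and lowest unadjusted p 0.076 in edgeR), where 1.33% of all genes were called.

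The fasting effect grew with the length of the fast in 4 members. The mean effect at CT36, CT40 and CT44 was compared with that at CT12, CT16 and CT20, the same phases of the day but 24 h earlier. The difference from controls became more positive for Cps1 (late minus early 0.61, adjusted p 0.00382), Asl (0.85, adjusted p 4.76e-05) and Arg1 (0.67, adjusted p 0.000585). It became more negative for Otc (-0.73, adjusted p 0.000114, all by edgeR's quasi-likelihood test). Thus 4 of 6 members were called, against 21.2% of all genes. The effect on Cps1 went from 0.14 in the early to 0.74 in the late fast, that on Otc from -0.22 to -0.95, on Asl from 0.55 to 1.40 and on Arg1 from 0.44 to 1.11. Control means also fell, from 12.83 to 12.61 log2 CPM for Cps1, 9.67 to 9.47 for Asl and 10.40 to 10.28 for Arg1. Fasted means went from 12.96 to 13.33, 10.21 to 10.86 and 10.83 to 11.38. Otc controls stayed at 8.82, and its fasted mean went from 8.60 to 7.83. For Nags the effect was -0.40 early and -0.31 late, a difference of 0.08 (SE 0.088, adjusted p 0.554). Ass1 was at -0.02 early and 0.49 late, and its difference of 0.51 (SE 0.20) did not pass (adjusted p 0.0684, edgeR) but did by DESeq2 (0.0386), without a low-count filter (0.00124) and without control CT8 female 2 (0.0475). The growth was not called for Cps1 without male replicate 1 (adjusted p 0.0871), for Cps1 (0.114) and Otc (0.0812) without male replicate 2, or for Cps1 (0.108) and Arg1 (0.129) in males alone.

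The decline of Otc was larger in females. Its log2 effect of fasting was -0.77 in females and -0.42 in males, a difference of -0.35 (SE 0.11, adjusted p 0.0323, edgeR), and Otc was the sole member whose effect differed between the sexes, against 12.4% of all genes. At each of the 9 times from CT12 to CT44, both fasted females were below both fasted males, which held for 1.59% of all genes. At CT20 the fasted males had 397 and 392 CPM and the fasted females 200 and 251, at CT36 338 and 321 against 227 and 237, and at CT40 304 and 279 against 243 and 81.4. In controls both females were below both males at 4 of those 9 times and overlapped with them at the other 5, and 23% of all genes had control females below at 4 or more times. The call was lost without male replicate 1 (-0.31, adjusted p 0.424) or male replicate 2 (-0.36, adjusted p 0.319), which leave 1 male per group, and it held without fasted CT40 female 2 (-0.28, adjusted p 0.0232, edgeR).

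**Figure D3:**
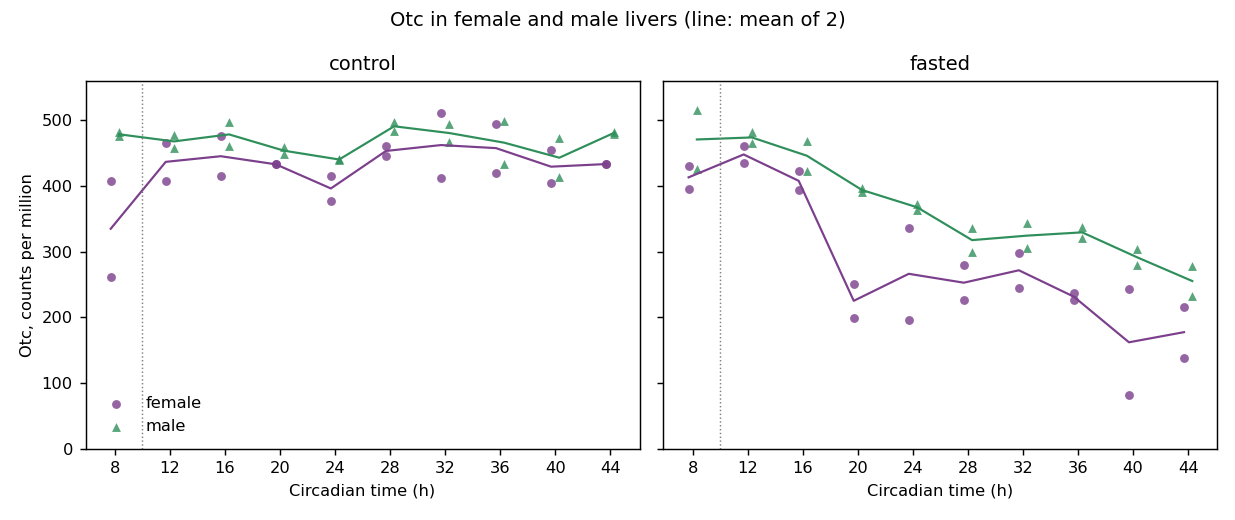
Otc in CPM in each library against circadian time in hours, controls on the left and fasted mice on the right, with females as circles, males as triangles, lines through the means of 2 and a dotted line where food was removed. From CT12 to CT44 both fasted females lie below both fasted males at every time, and the control sexes overlap at 5 of those 9 times.

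For Arg1 the rise was 0.99 in females and 0.69 in males, a difference of 0.30 (SE 0.12) that did not pass (adjusted p 0.0817, edgeR) but did by DESeq2 (adjusted p 0.0461). Differences for Nags, Cps1, Ass1 and Asl lay between -0.13 and 0.15, with adjusted p from 0.379 to 0.932. Among controls, females had lower Nags than males (log2 -0.12, SE 0.048, adjusted p 0.0419, edgeR), and 39.2% of all genes differed between control females and males. Otc (-0.13, SE 0.075, adjusted p 0.158) and Arg1 (-0.14, SE 0.078, adjusted p 0.158) were of like size but did not pass. The Nags call was lost without control CT8 female 2, the library rich in ribosomal RNA, under upper quartile scaling, and without either male replicate. Without either female replicate Otc was called beside Nags (adjusted p 0.00692 and 0.0135, edgeR).

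In fed mice, 4 of the 6 genes were rhythmic over a 24 h period, where 41.8% of all tested genes were. Asl had the largest rhythm, 1.02 in log2 units between fitted peak and trough, and peaked at CT15.7 (adjusted p 7.03e-08, edgeR quasi-likelihood test of a cosine and a sine). Control means of Asl were 896 ± 104 CPM at CT16 and 477 ± 45 at CT24 (SD, n = 4), and 808 ± 61.0 again at CT40. Nags followed with 0.63 and a peak at CT20.3 (adjusted p 1.22e-07), and Cps1 (0.40, peak CT16.3, adjusted p 0.0266) and Arg1 (0.39, peak CT14.2, adjusted p 0.0127) had smaller rhythms. The median peak-to-trough difference of all rhythmic genes was 0.499. Cps1 lost its call without male replicate 1, male replicate 2 or female replicate 1 (adjusted p 0.0871 to 0.267, edgeR), and Arg1 without male replicate 1 (0.176) or female replicate 1 (0.139). Otc (0.04, adjusted p 0.868) and Ass1 (0.36, adjusted p 0.189) were not called.

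In fasted mice, with a linear change over time allowed for, Ass1 was the sole member called rhythmic (0.61, peak CT12.9, adjusted p 0.0109, edgeR), where 47.1% of all genes were. The Ass1 call was lost without male replicate 2 or female replicate 1, with adjusted p up to 0.0629. The peak-to-trough difference of Asl was 0.15 in fasted mice and 0.93 in controls over the same times, and that of Nags 0.19 and 0.54. Tested directly, the rhythm differed between treatments for Nags (size of the difference 0.70, adjusted p 1.08e-05) and Asl (0.77, adjusted p 0.000972, edgeR), 2 of 6 members against 23.2% of all genes. For Ass1 the difference of 0.58 did not pass (adjusted p 0.156), nor did those of Cps1 (0.11), Otc (0.20) and Arg1 (0.31). Ass1 passed without a low-count filter (adjusted p 0.000331) and Arg1 without female replicate 2 (adjusted p 0.0125, edgeR). For Asl, fasted group means went from 1072 ± 360 CPM at CT12 to 1323 ± 353 at CT24, while the control means went from 840 ± 36.2 to 477 ± 45 (SD, n = 4). The difference between treatments at CT24 thus had both a lower control and a higher fasted mean than at CT12. For Nags, the fasted means stayed between 52.1 and 62.4 CPM from CT12 to CT44, and the control means ran from 52.8 at CT32 to 79.9 at CT20.

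Exon usage asks whether parts of a gene changed differently from the gene as a whole. In the deposited exon table, Asl was the sole member called (adjusted p 1.2e-23, diffSpliceDGE of edgeR with Simes' method), where 11.7% of 13339 genes were. Asl is listed in 38 bins, of which 33 had enough counts. Relative to the gene, 6 bins rose, by 0.29 to 0.85 on the log2 scale, and 4 fell, namely bins 30 (-0.62), 31 (-0.74), 32 (-0.91) and 33 (-0.70).

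All of these bins hold little of the gene's counts. Bin 30 had 0.688% ± 0.111 of the Asl counts in controls and 0.450% ± 0.0693 in fasted mice, and bin 31 had 0.359% ± 0.0739 and 0.215% ± 0.0383 (SD, n = 36). Their counts still rose with fasting, from a mean of 587 to 737 in bin 30, but by less than those of the gene. Together the 4 bins that fell held a median of 1.13% of the counts in controls and 0.732% in fasted mice, and the 6 that rose 0.803% and 1.06%. The other 28 bins, 5 of which had too few counts to be tested, held 98% of the counts in controls and 98.1% in fasted mice, and none of them was called. Bins carry numbers but no coordinates, so that it is not given here which exon or intron each one covers.

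No bin of Nags (12 bins), Cps1 (38), Otc (12), Ass1 (22) or Arg1 (13) was called, and the largest deviation from the gene was 0.05 for Cps1 and Otc, 0.18 for Arg1, 0.20 for Nags and 0.31 for Ass1. With an F test per gene in place of Simes' method, 2 members were called, Asl and Arg1 (adjusted p 0.0391). In the exon table, 77 of 80 columns resembled their namesake among the gene counts most, whereas 3 columns of fasted CT40 resembled another mouse of that group more, so that sex was left out of this test. Asl was also called without CT40 (adjusted p 5.63e-22, diffSpliceDGE of edgeR).

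**Figure D4:**
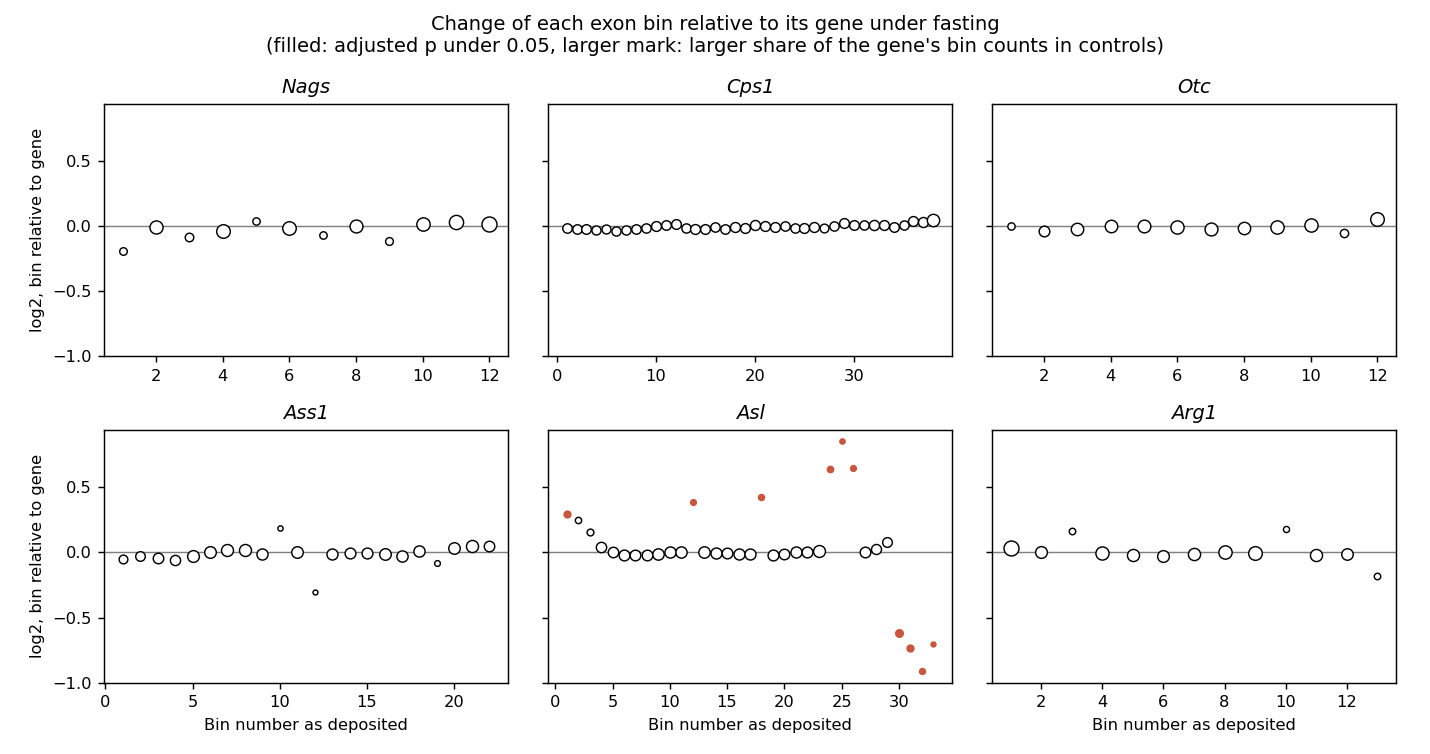
Log2 change of each tested exon bin relative to its whole gene, fasted minus control, against the bin number as deposited, 1 panel per gene, with filled marks where the adjusted p was under 0.05 and larger marks for a larger share of the gene's counts in controls. The 10 filled bins all belong to Asl and are small marks, and the large marks of all 6 genes lie near 0.

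The other genes around the cycle were taken from lists by role, each read against the 29.5% of all genes called higher and the 32.9% called lower. Of 11 genes of ammonia and glutamine handling, 5 rose, 4 fell and 2 did not pass, with a median log2 change of -0.13. Got1, the cytosolic aspartate aminotransferase, rose by 1.72 (267 to 931 CPM in the means) and Gpt2, an alanine aminotransferase, by 0.93 (505 to 956 CPM). Car5a, the mitochondrial carbonic anhydrase that supplies bicarbonate to Cps1, fell by 0.94 (89.3 to 50.7 CPM), and Rhbg, an ammonium channel of pericentral hepatocytes, fell by 0.38.

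Of 15 genes for carriers, arginine and ornithine use and the return of fumarate, 10 rose, 2 fell and 3 did not pass, with a median of 0.35. The largest rises were those of Slc25a22, a mitochondrial glutamate carrier (1.55, from 199 to 607 CPM), and Arg2, the mitochondrial arginase (1.44), which stayed near the lower end of what can be counted (0.166 and 0.505 CPM). Aldh18a1, which begins the synthesis of proline and ornithine from glutamate, fell by 0.81 at 1.55 and 0.935 CPM, and the cytosolic malate dehydrogenase Mdh1 fell by 0.08. Of 11 regulators, 6 rose, 4 fell and 1 did not pass, with a median of 0.11. Ppargc1a, a coactivator of fasting genes, rose by 1.73 and Cebpb by 1.09, whereas Foxa2 fell by 0.52 and Cebpa by 0.47. Cebpa and Cebpb encode C/EBP factors, whose short site is marked in the sequences above.

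Of 8 enzymes of amino acid degradation, 6 rose, 1 fell and 1 did not pass, with a median of 0.67. Aass, of lysine breakdown, rose by 1.36 and Tdo2, of tryptophan breakdown, by 1.15, and Prodh, of proline breakdown, fell by 0.32. These lists were chosen with results of these data known, and nothing particular to a list is read from its counts.

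**Figure D5:**
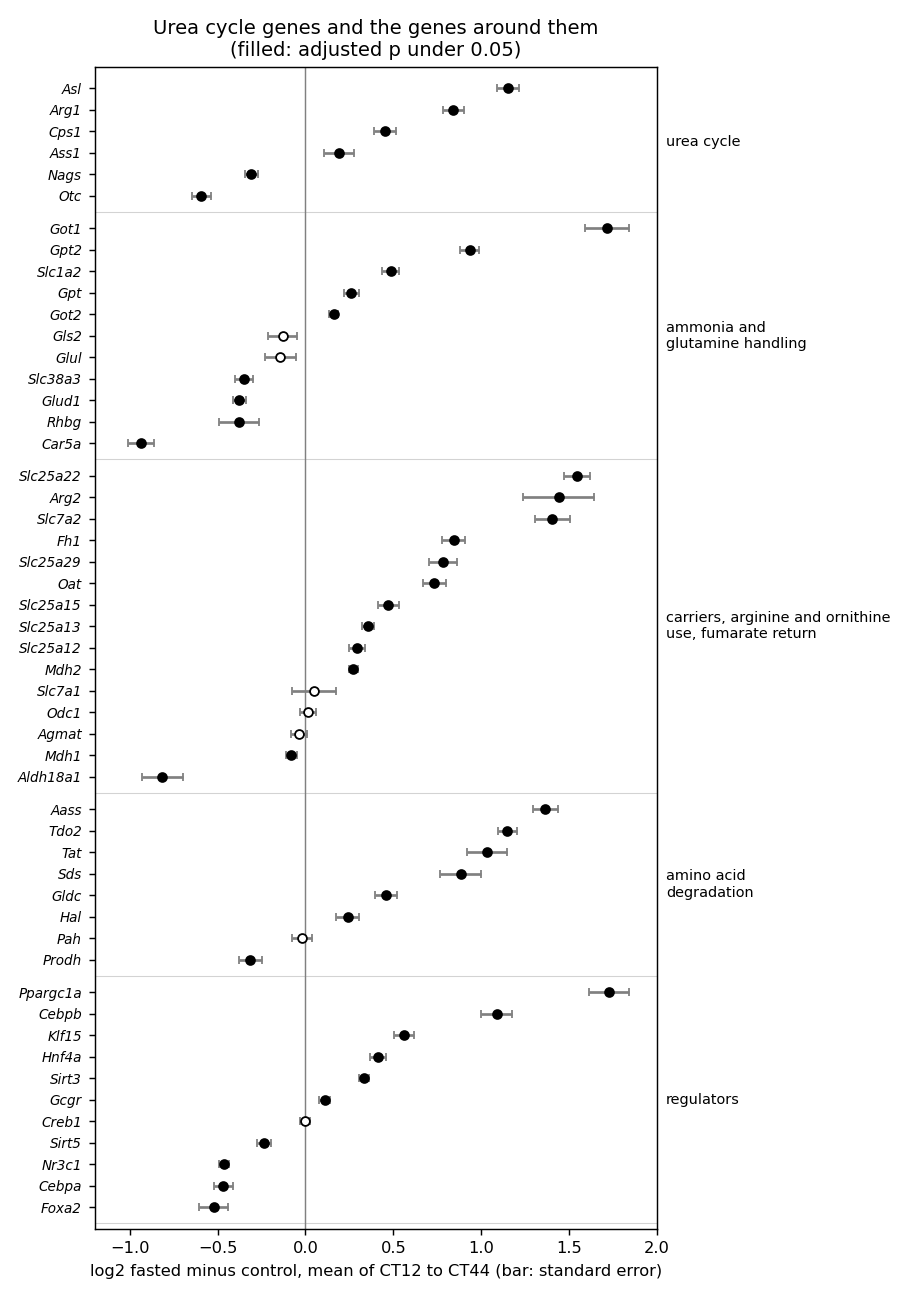
Log2 difference of fasted minus control livers, averaged from CT12 to CT44, for the 6 enzymes and each gene of the 4 lists around them, with bars for the standard error and filled circles where the adjusted p was under 0.05, ordered by value within a list. Each list holds genes on both sides of 0, from Got1 at 1.72 to Car5a at -0.94 in ammonia and glutamine handling.

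Markers of the cell types in liver also moved with fasting, and their counts stand beside the 29.5% of all genes called higher and the 32.9% called lower. Of 4 hepatocyte markers tested, 2 rose, 1 fell and 1 did not pass. Of 6 periportal markers, 3 rose, 2 fell and 1 did not pass, and of 8 pericentral markers 3 rose, 4 fell and 1 did not pass. All 4 Kupffer cell markers fell, with a summed level of 176 to 508 CPM in control and 114 to 375 CPM in fasted libraries (medians 274 and 205). At CT8, before food was removed, the fitted values of the same 4 were lower in the group labelled fasted by 0.22 to 0.40 on the log2 scale. These differences at CT8 are given without a test. The control group at CT8 includes control CT8 female 2, with 31.3% of its counts from the ribosomal RNA gene Rn18s-rs5. Whether the differences rest on that library was not tested. Of 4 endothelial markers, 1 rose and 2 fell, and of 4 stellate markers 1 rose and 3 fell. Of the 4 markers each of cholangiocytes and leukocytes, 3 and 2 fell and none rose, at summed levels of 5.53 to 20.1 and 9.29 to 45.3 CPM in controls and 3.05 to 18.1 and 7.76 to 24.4 CPM in fasted libraries. Their part in the changes of the urea cycle genes was not tested.

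Between the members, profiles over the 20 means of treatment and time were described by Pearson correlations, with no test, since the means share time, treatment and scaling. Asl and Arg1 were most alike (0.968), followed by Cps1 and Asl (0.956). Cps1 and Otc were opposed over all means (-0.771) and in the 10 fasted means (-0.82) but not in the 10 control means (0.525). Over the deviations of the 80 libraries from the means of their treatment, time and sex, Asl and Arg1 had 0.913. Between mice of the same treatment, time and sex, more Asl thus tended to go with more Arg1. Outside the members, and among 11570 genes of sufficient level, the profiles most like the mean of the standardized profiles of the 6 were Gm5424 (0.923), the Ass1 pseudogene, Atp5f1c (0.920), Phb1 (0.914), Ndufa5 (0.910) and Ndufb5 (0.908). For single members they were Arhgef19 (0.939) and Phldb3 (0.928) for Nags, Mdh2 (0.967) and Atp5f1b (0.952) for Cps1, and C1s1 (0.985) and Lgals1 (0.984) for Otc. Gm5424 (0.999) and Etnppl (0.917) were nearest to Ass1, Ahcy (0.983) and Ahcyl (0.980) to Asl, and Mat1a (0.975) and Dlst (0.975) to Arg1. The mean profile of the 6 averages 4 genes that rose with fasting and 2 that fell. The 5 genes nearest to that mean changed by 0.05 (Atp5f1c) to 0.19 (Gm5424) on the log2 scale with fasting.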

How the data were processed

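Poly(A) RNA of 80 livers was sequenced in a strand-keeping, paired-end protocol. The authors deposited raw counts per gene and per exon bin, whole numbers without normalization, and a table of normalized signal that was not used here. Per the submitters' processing notes, Trimmomatic, HISAT2, DESeq2 and GRCm39 were used. The counting program and annotation are not given in the sources used here, and the article, a review, describes no methods. The gene identifiers match GENCODE M21 apart from their version, and positions and exon lengths are those of M21 on GRCm38.

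Groups came from the titles. After filterByExpr and TMM scaling, edgeR's quasi-likelihood model gave every combination of treatment, time and sex its own mean. Rhythms used a cosine and a sine of 24 h with sex, and in fasted libraries a linear change. Exon bins were tested with diffSpliceDGE without sex, after leaving out entries that name no exon (8.28% to 25.9% of each column, median 11.8%). P-values were adjusted by Benjamini-Hochberg over all genes and called under 0.05. CPM values were scaled by TMM. Software was edgeR 4.0.16, DESeq2 1.42.0 and limma 3.58.1 under R 4.3.3, and blastn 2.17.0 for shared sequence. The gene and exon tests were tested on simulated data. Total counts of 25534901 to 59927771 put at least 723 reads on each member in each library, so the spread between mice sets the precision.

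The 6 genes were set by symbol and not by a measured value, though earlier results of these data were known. The lists around them and the tests were chosen with those results known. Named from the lists are the 2 called genes with the largest rise and the 2 with the largest fall, and for likeness the 5 genes, with mean log2 CPM not under 1, most like the members' mean profile and the 2 most like each member. The motifs were taken from the same plan. Of the hepatocyte markers, Tf is not a symbol in the table. Replicates of a group were compared pairwise by the chi-square of their counts, which was at least 14.8 per degree of freedom in 120 pairs, so that none was counted as a duplicate. Replicate numbers recur across groups, and the tests have no replicate block. Alternatives were other scalings, filters, tests and thresholds, single sexes, each replicate or time left out, and, chosen after seeing the data, leaving out fasted CT40 female 2 and summing Ass1 with Gm5424.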

Additional observations from a re-analysis of the deposited data

Results flagged for a closer look

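A single library stood apart from the other 3 of its group in 8 of 120 groups of a gene, treatment and time, by Dixon's ratio (the gap to the nearest library over the range of the group, above its 95% critical value). About 1 group in 20 is picked by chance, or 6 of 120. For Nags, fasted CT16 male 1 was highest (ratio 0.92, with 66.4 CPM against 51.2 to 52.3) and fasted CT28 female 2 lowest (0.875, 46.3 against 66.2 to 69.6). For Cps1, control CT16 male 2 was lowest (0.897, 6632 CPM against 7364 to 7453), control CT20 female 1 highest (0.851, 9448 against 6486 to 6859) and fasted CT24 male 2 lowest (0.921, 4899 against 8526 to 8941). For Otc, fasted CT24 female 1 (0.842, 197 CPM against 336 to 372) and fasted CT40 female 2 (0.83, 81.4 against 243 to 304) were lowest. For Ass1, control CT28 female 2 was highest (0.885, 4498 CPM against 2590 to 2760).

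The effect of fasting differed between late and early fasts for Cps1 (log2 difference 0.61), Otc (-0.73), Asl (0.85) and Arg1 (0.67), and between females and males for Otc (-0.35). The 24 h rhythm differed between fasted and control mice for Nags (0.70) and Asl (0.77). Each of these differences passed edgeR's quasi-likelihood test of the difference itself.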

How the results depend on the processing

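Of the 6 members, 5 kept their call in the mean fasting effect under each of 28 alternatives, and Ass1 lost it under 10, among them an adjusted p under 0.01, so that 5 or 6 were called. At single times the 30 calls became 20 in females alone or without male replicate 2 and 35 without a low-count filter. No member changed direction in a called value. The difference between the sexes, called for 1 member, was called for 2 by DESeq2 and for 2 without a filter, for 0 to 1 with a replicate left out, and for 0 at an adjusted p under 0.01. Among controls, the 1 sex difference became 0 without a filter, 0 under upper quartile scaling, 0 without control CT8 female 2, 0 at an adjusted p under 0.01 and 0 to 2 with a replicate left out. The late-minus-early count of 4 ranged from 2 to 4 with a replicate left out, was 2 in males alone, and was 5, with Ass1 added, by DESeq2, without a filter and without control CT8 female 2. The 2 rhythm differences became 3 without a filter (Ass1) and without female replicate 2 (Arg1). At CT8 the count of 0 ranged from 0 to 1 with a replicate left out, the 1 being Otc (0.35, adjusted p 0.0143) without female replicate 1. Control rhythms, 4 in number, were 2 to 4 with a replicate left out, 2 in the first cycle alone, 2 in females alone and 2 at an adjusted p under 0.01. Fasted rhythms, 1 in number, were 0 to 2 with a replicate left out, 2 without fasted CT40 female 2, where Otc was added (0.31, adjusted p 0.0318), and 0 at an adjusted p under 0.01. Exon usage went from 1 member to 2 with a gene-level F test. The cause of these changes was not tested.

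Within a time and sex, fasted and control mice with the same replicate number mostly did not deviate together (correlations of deviations from -0.06 to 0.25, median 0.002, 1 of 20 over 0.1). The highest was that of males at CT16. This check cannot show whether a replicate number is shared across times or sexes. With the number as a block, 6 members were called in the mean effect and 29 at single times, Cps1 at CT32 being lost (adjusted p 0.0505), and among controls 0 differed by sex (Nags -0.11, adjusted p 0.176). No other count of members changed with the block. Leaving out a replicate leaves 1 library of that sex in each group, which is assumed to vary like the others. Counts over all genes moved by more than 1.5 times in places: from 282 at CT8 to 0 without male replicate 1 and 2123 without female replicate 1, from 340 at CT12 to 0 in males alone and 1158 without a filter, from 2621 for the sex difference to 238 without male replicate 1, and from 1557 for exon usage to 508 without replicate 1 and 2382 with the F test.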
